A study of Mus musculus with 48 samples.

Results

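The comparison described here sets white adipose tissue (WAT) of old mice whose diet was switched late in life against WAT of old mice whose diet was never switched. Its members are all WAT libraries at 26 months: 16 of the 48 libraries of the series. They were chosen by their diet and age labels alone. The switched side holds 5 ALDR libraries, from mice moved from full feeding (AL) to dietary restriction (DR) at 24 months, and 5 DRAL libraries, from mice moved at 24 months from DR back to AL. The unswitched side holds 3 libraries of mice fed AL for life and 3 of mice on DR since 12 weeks of age. Each group entered with equal weight, so that both sides hold 1 group with AL and 1 with DR as the early diet, and 1 of each as the present diet. A gene that follows only the early diet, or only the present one, on an additive log scale therefore has a value near 0. All mice were female C3B6F1 hybrids, and DR mice received 60% of the intake of AL mice. The protocol in the labels names an epididymal depot although the mice were female, so the depot is uncertain. Another 6 WAT libraries, 3 AL and 3 ALDR at 5 months, were measured with the same protocol. The move at 24 months cannot apply to these young ALDR mice. For brown adipose tissue, the labels describe 5 month ALDR mice as switched from full feeding to DR. Those of WAT bear the same group name. In what follows, switched refers to the ALDR and DRAL groups at 26 months only. The 6 young libraries have no weight in the contrast but were in the fit. There they help to set the filter on low counts and the estimate of spread. Without them 242 genes were called, 212 of them among the 340 given below. Brown adipose tissue (BAT) of the same diets is set beside the WAT values below. Nothing in the labels says that the libraries came from separate preparation rounds, and nothing in them says that they came from 1 round. They do say, for liver, that part of the libraries belonged to an earlier data set. In WAT, switched diet and any unlabelled difference in handling or library preparation between the groups cannot be told apart.

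WAT stores lipid in adipocytes, and it also holds macrophages, vessels, stromal progenitors and fibroblasts. Restriction is known to shrink its lipid stores and to raise the genes of fatty acid synthesis in this tissue. A diet switch asks the tissue either to start or to undo that state. Total RNA libraries such as these, made after removal of ribosomal RNA, hold polyadenylated and other transcripts alike, so that RNA of repeats can also be counted where an annotated gene holds a copy of the repeat.

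The 16 libraries held 12247161 to 22500246 counts, at which 3 counts in a library correspond to 0.133 to 0.245 CPM, that is, counts scaled to the library total. Adipocyte markers such as Adipoq and Plin1 were abundant on both sides: the 10 markers summed to 32300 to 42900 CPM of the library total in switched libraries and 29100 to 38400 CPM in unswitched ones. The 4 Y-linked markers did not exceed 0.122 CPM in any library. Markers of skeletal muscle differed widely. All 8 were measured, and their sum was 351, 4800 and 13900 CPM in the DR libraries, 1040, 63.5 and 48.6 CPM in the AL libraries, 21.1, 3510, 16.7, 30.2 and 1140 CPM in the ALDR libraries, and 22.7 to 54.2 CPM in the DRAL libraries. The highest libraries were 2 of the DR group, and 2 ALDR libraries and 1 AL library were also high. None of the 7 pancreas markers was tested for want of counts, and the 8 liver markers reached 2810 CPM in 1 switched and 2160 CPM in 1 unswitched library. In these bulk samples, fewer cells of a type and less RNA per cell cannot be told apart.

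Of 15828 genes tested, 340 (2.15%) differed between switched and unswitched mice at an edgeR quasi-likelihood adjusted p under 0.05. The switched side was higher for 152 of them (0.96% of genes tested) and lower for 188 (1.19%). The changes were small: the median absolute log2 fold change was 0.42 among the called genes and 0.13 among all genes tested. Expression differed by 1 or more on the log2 scale for 4 of the genes called higher and 28 of those called lower. For comparison, the other contrasts of the same 4 groups called far more genes. Early diet (DR and DRAL against AL and ALDR) called 2037 genes, or 12.9%, and present diet (DR and ALDR against AL and DRAL) called 4816, or 30.4%. The count for the switch rests on single libraries. It fell to 73 without DR replicate 2 and rose to 561 without DR replicate 1, and the other 14 omissions gave 106 to 494. With the level of the muscle markers as a covariate, 10 genes were called. The median absolute log2 fold change of the 340 genes was then 0.40 against 0.42 without the covariate, and their median SE was 0.12 against 0.09. The share of the muscle signal in the calls was not tested.

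**Figure D1:**
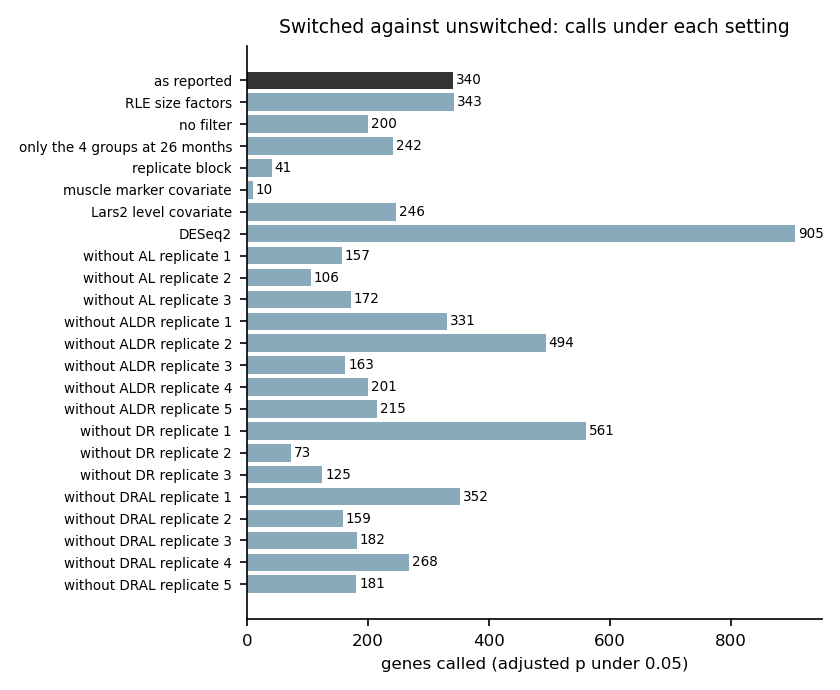
Number of genes called between switched and unswitched WAT (x axis) as reported and under each other setting (y axis), 1 bar per setting. The black bar is the reported 340; the muscle marker covariate left 10 and DESeq2 gave 905.

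Arsb and Xkrx carried the strongest differences. Arsb encodes arylsulfatase B, a lysosomal enzyme that removes sulfate from glycosaminoglycans. Xkrx encodes a membrane protein of the XK-related family. In both genes, the annotated exons hold a long run of the telomere repeat: 8 copies of CCCTAA in the 3′ UTR of Arsb and 9 in that of Xkrx, read on the strand of the gene. Among the 15828 genes tested, 5 (0.0316%) had a run of at least 3 such copies. The other 3 are Sympk with 7, Smarcad1 with 5 and Wls with 4, all in transcripts annotated as retained introns. The start of the run is shown for the 3 longest, because it is the feature these genes share, with 12 bases before it and its first 18 bases in capitals (GRCm38, GENCODE M21 transcripts).
Xkrx (chrX:134150100-134150129, minus strand): ccctagccctagCCCTAACCCTAACCCTAA
Arsb (chr13:93941200-93941229, plus strand): ccgcacccatgaCCCTAACCCTAACCCTAA
Sympk (chr7:19033560-19033589, plus strand): ctggcaccctagCCCTAACCCTAACCCTAA
The motif searched was CCCTAA in tandem in the sense of the transcript, and TTAGGG for the other strand. A match is a description of the letters, not of what bound or copied them.

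Arsb (ENSMUSG00000042082, 13:93771630-93943016) stood at 76.4, 130 and 106 CPM in the AL libraries and at 135, 109 and 92.1 CPM in the DR libraries. The ALDR libraries had 26.1, 26.8, 28.9, 27.1 and 23.6 CPM, and the DRAL libraries 32.7, 32.2, 32.3, 30.3 and 27.0 CPM. Every switched library was below every unswitched one, whichever diet was eaten early or late. The log2 fold change was -1.92 (SE 0.14, edgeR adjusted p = 3.34e-07). Each pairwise comparison gave a similar value: -1.98 for ALDR against AL, -2.08 for ALDR against DR, -1.76 for DRAL against AL and -1.86 for DRAL against DR, in comparisons that share libraries. The difference was called under each of the 23 other settings, with log2 fold changes from -2.10 to -1.82. The 5 month libraries had 56, 46.3 and 68.0 CPM in AL and 45.4, 45.3 and 87.6 CPM in ALDR. All 6, the young ALDR libraries included, lay above every switched library at 26 months. Of the 6, 5 lay below every unswitched library, and 1 ALDR library lay inside the unswitched range.

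Xkrx (ENSMUSG00000031258, X:134149043-134162076) was lower still in the switched mice. It stood at 26.1, 46.3 and 37.4 CPM in AL and 66.0, 45.0 and 39.4 CPM in DR. The ALDR libraries had 0.91, 0.22, 0.51, 0.39 and 0.15 CPM, and the DRAL libraries 0.58, 0.27, 0.35, 0.70 and 0.99 CPM. There was again no overlap, and the log2 fold change was -6.41 (SE 0.52, edgeR adjusted p = 1.4e-06), with -7.02 to -6.29 under the 23 other settings. At 5 months, libraries of 1 group differed widely among themselves: the AL libraries had 7.67, 0.85 and 21.9 CPM, and the ALDR libraries 9.19, 7.55 and 34.6 CPM.

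Xkrx and Arsb followed each other from library to library. Over the 12 libraries of unswitched and 5 month mice, young ALDR mice included, Spearman's rho between Xkrx and Arsb CPM was 0.96. Pearson's r of log2 CPM was 0.85. Over the 10 switched libraries, where both were low, rho was 0.12. Libraries share depth and preparation, so these values are descriptions. None of the other tested genes with such runs was called, and their levels were not compared with Xkrx or Arsb library by library. Their runs lie in transcripts annotated as retained introns, so in this they are unlike Arsb and Xkrx. Sympk had a log2 fold change of -0.26 (SE 0.07, edgeR adjusted p = 0.0742), with both switched means below both unswitched ones. Wls had one of 0.09 and Smarcad1 one of 0.02. The 11 tested genes whose longest run was 2 copies of CCCTAA had log2 fold changes from -0.22 to 0.26, and none was called. The 13 with at least 2 copies of TTAGGG lay between -0.07 and 0.22, and none was called.

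In BAT, whose libraries were made from polyadenylated RNA, neither gene was called. Arsb stood at 35.0 to 50.3 CPM in the 14 BAT libraries at 26 months, with a log2 fold change of -0.11 (SE 0.07, edgeR adjusted p = 0.578). Xkrx stood at 0.84 to 2.43 CPM in them, with a log2 fold change of 0.16 (SE 0.26, edgeR adjusted p = 0.889). The BAT libraries differ from those of WAT in tissue, RNA selection and read layout at once, and these cannot be told apart.

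**Figure D2:**
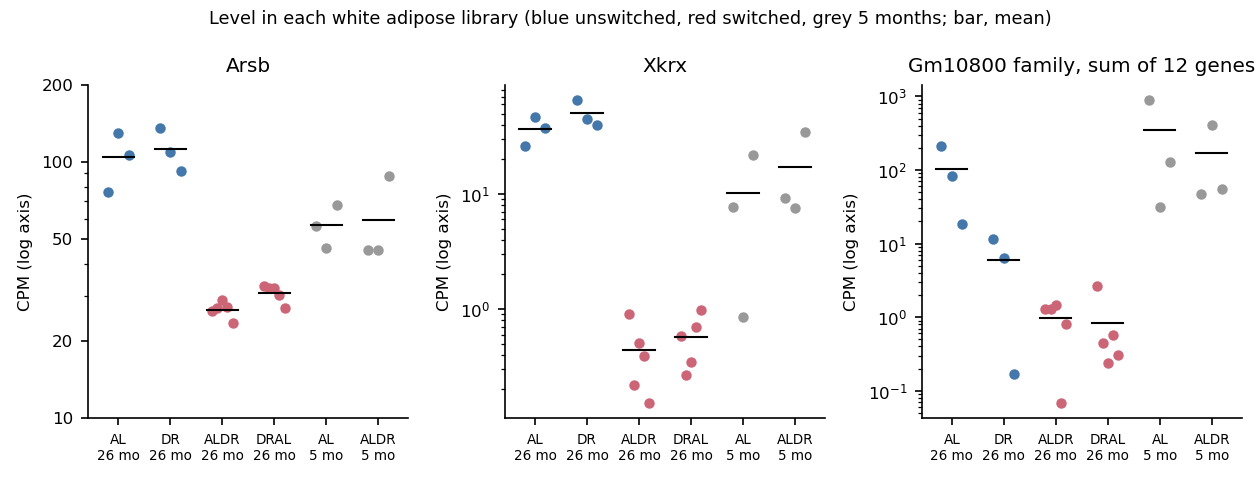
CPM (log axes) of Arsb, Xkrx and the summed Gm10800 family in each of the 22 WAT libraries by group; points are libraries and bars are group means. Arsb and Xkrx in the 10 red switched libraries sit below all 6 blue unswitched ones; the family overlaps, because 1 DR library had 0.171 CPM.

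A second group of repeat-bearing genes was also low in switched mice. Gm10800, a predicted protein-coding gene, shares 21-base words with 11 other genes of the count table on chromosomes 2, 9 and 14, and their reads may be split between them in an unknown way. A stretch of its coding sequence is shown with the 21 bases that all 11 other genes hold in capitals.
Gm10800 (chr2:98666945-98667004, minus strand): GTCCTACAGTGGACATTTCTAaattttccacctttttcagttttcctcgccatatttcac
The 12 genes together had 3950, 1318 and 337 counts in the AL libraries and 213, 141 and 3 counts in the DR libraries. The ALDR libraries held 16, 23, 25, 1 and 10 counts, and the DRAL libraries 60, 8, 4, 9 and 5. At 5 months the counts ran from 512 to 17211 in AL and from 657 to 6843 in ALDR. All AL and all 5 month libraries were above all switched libraries, whereas 1 DR library lay among the switched ones. The summed level, as log2(CPM + 0.5), differed by -3.70 between the switched and unswitched sides. The family was chosen after its values had been seen, so this difference is a description. Of its 11 tested genes, 7 were called lower, and Gm10800 itself had a log2 fold change of -4.64 (SE 0.9, edgeR adjusted p = 0.0146). With the muscle covariate none of the 7 was called, with adjusted p from 0.222 for Gm10800 to 0.379 for Gm10801 and log2 fold changes from -4.20 to -3.45. Gm10801 was not called in 20 of the 23 other settings and Gm21738 in 8. Between the unswitched groups the family differed widely too, with means of log2(CPM + 0.5) of 6.12 in AL and 1.92 in DR. No BAT library held a count of any of the 12 genes, which allows up to 0.155 to 0.494 CPM (3 counts per library). Spearman's rho between the family and Xkrx was -0.57 over the 12 unswitched and 5 month libraries, 0.10 over the 10 switched ones and 0.51 over all 22.

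Beyond these, the called genes showed where the groups stood. For 221 of the 340 called genes (65%), both switched means lay beyond both unswitched means on the same side, against 20.3% of all genes tested. The contrast favours this arrangement, so the share describes the genes and supports nothing further. Both switched means lay between AL and DR for 27 genes (7.94%, against 30.5% of all genes tested). The group farthest from the mean of the other 3 was DR for 220 genes (64.7%, against 45.1% of all genes tested), DRAL for 66 (19.4%, against 22.4%), AL for 35 (10.3%, against 19.3%) and ALDR for 19 (5.59%, against 13.2%). This measure says which group was farthest, not that the other groups lay near each other. For the 220 genes with DR farthest, the median distance of DR from the mean of the other 3 was 0.748 on the log2 scale. The median spread of those other 3 group means was 0.289.

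C2cd2l, which encodes a lipid transfer protein, is an example. It had 76.1, 85.7 and 87.7 CPM in DR, 23.9, 28.3 and 25.3 CPM in AL, 28.1 to 32.0 CPM in ALDR and 17.8 to 27.2 CPM in DRAL, and its log2 fold change was -0.82 (SE 0.08, edgeR adjusted p = 2.01e-05). The 5 month mice on restriction had 80.3 to 113 CPM, like old DR mice, and young AL mice 29.4 to 29.7 CPM. Srebf1, the transcription factor of fatty acid synthesis, had 426 to 556 CPM in DR and 124 to 257 CPM in the other groups at 26 months (log2 fold change -0.67). On the higher side, Timp4, an inhibitor of matrix metalloproteinases, had 60.9 to 114 CPM in DR and 225 to 358 CPM elsewhere (0.86). Rarres2, the adipokine chemerin, had 129 to 155 CPM in DR and 287 to 539 CPM elsewhere (0.72), and Apoe, the lipoprotein component, 929 to 1220 CPM in DR and 2100 to 4170 CPM elsewhere (0.62). The DR group, which stood apart on these genes, also held the 2 libraries with the most muscle RNA. With the muscle covariate, C2cd2l had a log2 fold change of -0.80 and was still called, whereas Timp4 (adjusted p = 0.0621), Rarres2 (0.0502), Apoe (0.0521) and Srebf1 (0.114) were not. Their log2 fold changes with the covariate were 0.76, 0.72, 0.67 and -0.75, against 0.86, 0.72, 0.62 and -0.67 without it.

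Among the genes whose switched means lay between AL and DR, the leading ones were Rassf3, Snhg11 and Enpep on the lower side and Bcat1, Cdk1 and Il13ra2 on the higher side. Enpep, a membrane aminopeptidase, had 472 to 861 CPM in DR, 86.4 to 121 CPM in AL, 72.7 to 138 CPM in ALDR and 155 to 247 CPM in DRAL (log2 fold change -0.88, edgeR adjusted p = 0.00976). Bcat1, which starts the breakdown of branched-chain amino acids, had 0.68 to 1.10 CPM in DR, 6.70 to 14.3 CPM in AL, 6.22 to 12.8 CPM in ALDR and 2.50 to 4.89 CPM in DRAL (0.98, adjusted p = 0.0143). None of the 6 was called with the muscle covariate, at adjusted p = 0.0651 for Enpep and 0.0753 for Bcat1; their log2 fold changes were then -0.99 and 1.04. Bcat1 was also not called with the replicate block (0.111), and Cdk1 and Il13ra2 were not called in 8 and 11 of the 23 other settings.

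Genes that set switched mice apart whatever the diet were few. No overlap between the 10 switched and 6 unswitched libraries was found for 37 genes (0.234% of those tested), and 32 of them were called, 11 higher and 21 lower. Of these, only Arsb, Xkrx, Ltbp4 and Zcchc10 differed by 1 or more on the log2 scale, all lower. Ltbp4, which binds latent TGF-beta in the matrix, had 161 to 284 CPM in unswitched and 72.8 to 139 CPM in switched libraries (log2 fold change -1.10, SE 0.22, edgeR adjusted p = 0.016). Zcchc10, a zinc knuckle protein, was near the detection floor, with 1.39 to 2.06 CPM against 0.396 to 1.29 CPM (-1.17, SE 0.23, adjusted p = 0.0148). With the muscle covariate neither passed, at adjusted p = 0.304 and 0.253.

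The other called genes without overlap had smaller differences. All but Phgdh and 4931406C07Rik, which the naming rules selected, were named after their values were seen. Lig4, the DNA ligase of end joining, had 7.72, 10.6 and 9.04 CPM in AL and 9.45, 9.67 and 9.15 CPM in DR. It had 5.07, 5.49, 4.92, 5.25 and 4.55 CPM in ALDR and 5.41, 5.69, 6.27, 5.06 and 5.39 CPM in DRAL, and the log2 fold change was -0.81 (SE 0.10, edgeR adjusted p = 0.000627). Pfdn2, a subunit of the chaperone prefoldin, had 7.65 to 10.3 CPM in unswitched and 4.46 to 7.23 CPM in switched libraries (-0.80, adjusted p = 0.000656). Fth1, the ferritin heavy chain, had 360 to 451 CPM against 249 to 316 CPM (-0.47, adjusted p = 0.0139). On the higher side, F11r, a junctional adhesion molecule, had 57.6 to 71.1 CPM in switched and 47.4 to 53.0 CPM in unswitched libraries (0.36, adjusted p = 0.00547). Phgdh, the first enzyme of serine synthesis, had 416 to 602 CPM against 314 to 414 CPM (0.45, adjusted p = 0.0413), and Rdx, a linker of membrane and actin, 201 to 236 CPM against 176 to 200 CPM (0.23, adjusted p = 0.0115). The others were 4931406C07Rik, Ube2k, Pitpnb, Anp32b, Ncdn, Cdk6, Ints1, Pianp, Atp13a1, Midn, Sf3a2, Maml1, Sec24c and Cyp1b1 among the lower and Tmem234, Cog8, Pdf, Pus7, Zfp229, Zdhhc24, G530011O06Rik and 5033430I15Rik among the higher. Of the 32 genes, 7 were not called in at least 12 of the 23 other settings: Pus7 in 19, Zfp229 and Sec24c in 17, Atp13a1 in 16, Phgdh and Cdk6 in 15 and Maml1 in 14. With the muscle covariate, 4 of the 32 were called, Lig4 among them (adjusted p = 0.0174). Phgdh (0.278), Fth1 (0.105), F11r (0.0753), Pfdn2 (0.0505) and Rdx (0.0502) were not, at log2 fold changes of 0.44, -0.51, 0.37, -0.73 and 0.29.

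**Figure D3:**
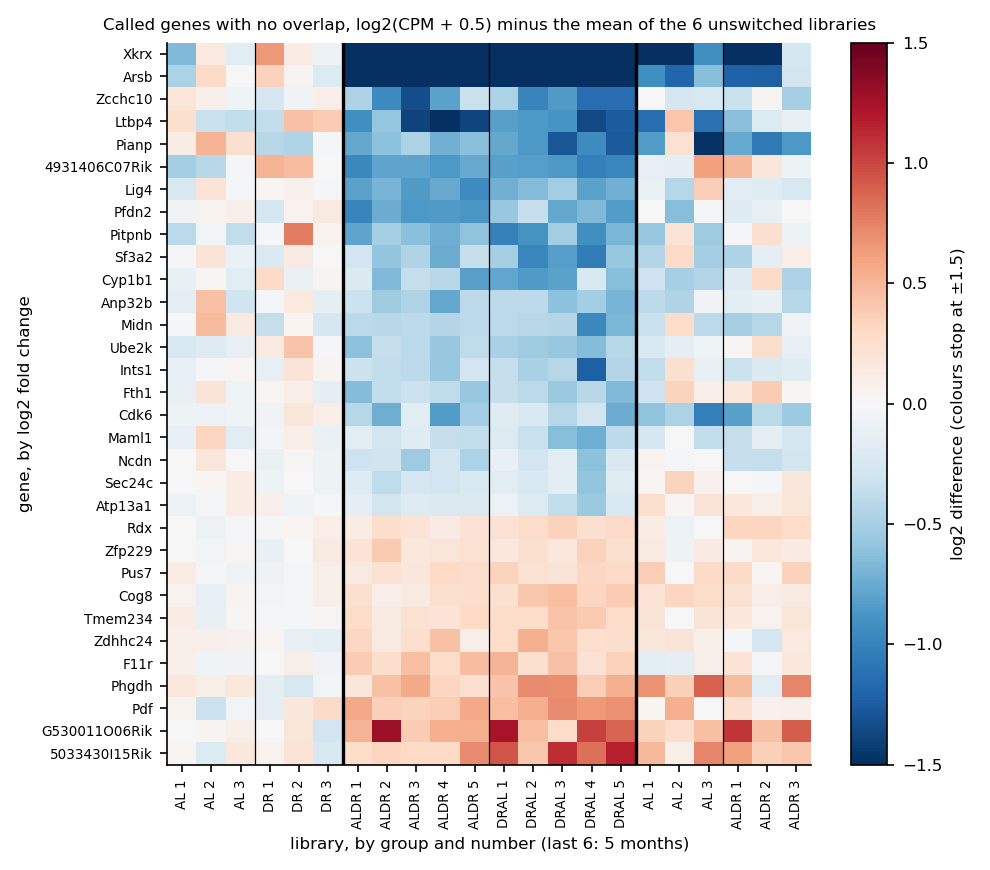
The 32 called genes with no overlap (rows, by log2 fold change) in the 22 WAT libraries (columns); colour is log2(CPM + 0.5) minus the mean of the 6 unswitched libraries at 26 months. The genes were chosen so that the 10 switched libraries all lie on 1 side of the 6 unswitched ones; the 6 columns at 5 months, which had no weight in the contrast but were in the fit, show no single pattern.

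The pairs of groups on the same present diet offer 2 comparisons that share no library. ALDR against DR called 2021 genes (12.8%), and DRAL against AL called 344 (2.17%). Both called 143 genes, which is 7.08% of the first list and 41.6% of the second. Of these, 128 moved in opposite directions and 15 in the same direction, 3 higher and 12 lower in the switched group. The 15 depended on the setting: leaving out 1 library gave 2 to 15, the replicate block 3, the muscle covariate 7 and DESeq2 44, and the 344 calls for DRAL against AL went to 61 to 386 when 1 library was left out. Both were lowest without AL replicate 2, and AL replicate 3 and DRAL replicates 3 and 5 also lowered both by more than 1.5 times when left out. The 15 genes were Arsb, Xkrx, Zadh2, Lig4, Pfdn2, Srp68, Acsf2, Atp6v0c, Ncl, Mov10, Ppp6r2 and Adh1 on the lower side and F11r, Tmem234 and Snap23 on the higher side. Acsf2, an acyl-CoA synthetase, had 13 to 17.0 CPM in AL against 7.72 to 10.7 CPM in DRAL, and 20.2 to 26.8 CPM in DR against 11.1 to 14.5 CPM in ALDR (log2 fold change over all groups -0.78, edgeR adjusted p = 0.000908). Ncl, the nucleolar protein nucleolin, had 76.7 to 112 CPM in AL against 55.4 to 74.4 CPM in DRAL, and 93.4 to 116 CPM in DR against 65.9 to 79.6 CPM in ALDR (-0.53, adjusted p = 0.00667). Ncl was not called with the muscle covariate (-0.51, adjusted p = 0.125).

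The pairs matched on early diet also share no library. ALDR against AL called 690 genes (4.36%), and DRAL against DR called 4825 (30.5%). Leaving out 1 library gave 191 to 1159 calls for the first comparison and 3025 to 4978 for the second. Both called 479 genes, 69.4% of the first list and 9.93% of the second; 457 moved in opposite directions and 22 in the same direction, 8 higher and 14 lower in the switched group. In both pairings, most genes called on both sides had opposite signs. Over all genes tested, the sign was the same in 43.8% for the pairs matched on present diet and in 33.5% for those matched on early diet. DRAL against DR called 427 genes and ALDR against DR 554 once the muscle covariate was added. All 4 pairwise comparisons were called in 1 direction for 6 genes: Arsb, Xkrx, Zadh2, Lig4 and Pfdn2, all lower, and F11r, higher; these 4 comparisons share libraries. Zadh2, a prostaglandin reductase, had 11.0, 16.2 and 14.4 CPM in AL and 19.4, 25.6 and 19.5 CPM in DR, against 7.88 to 11.1 CPM in ALDR and 7.61 to 8.76 CPM in DRAL (log2 fold change -0.99, SE 0.12, edgeR adjusted p = 0.000381).

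**Figure D4:**
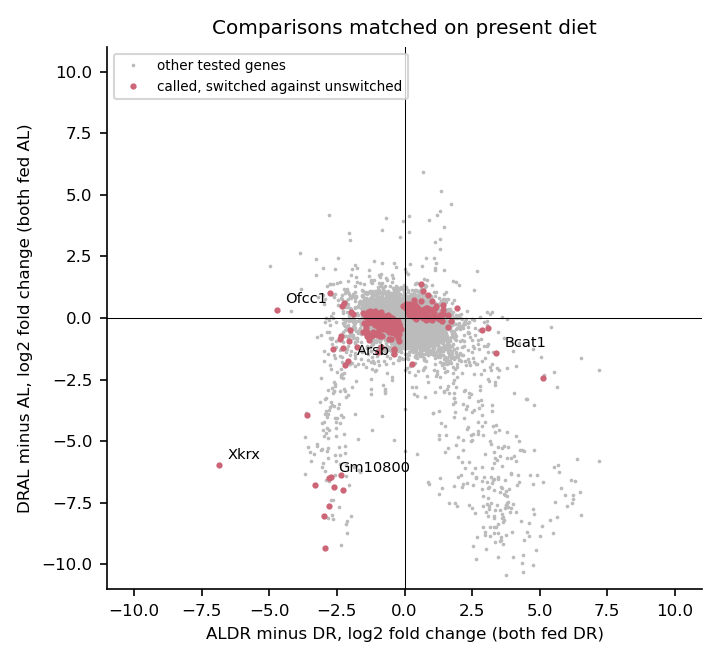
Log2 fold change of ALDR against DR (x axis, both on DR when killed) and of DRAL against AL (y axis, both on AL when killed), 1 point per gene tested; red points are the 340 called genes. Xkrx lies far down on both axes; the grey band at the lower right is low on y and high on x.

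Gene groups were read from 42 lists of markers, pathways and library features. Of 588 genes of these lists that were tested, 21 (3.57%) were called in the switch contrast, 6 higher and 15 lower, against 2.15% of all genes, and their median log2 fold change was 0.02 against 0.01. A called member was found in 14 lists, and 3 lists had no tested member. Fatty acid synthesis had 2 of 18 lower, Srebf1 and the citrate carrier Slc25a1 (log2 fold change -0.82), while 13 of the 18 were called higher with DR as the present diet (16% of all genes tested) and 13 with DR as the early diet (6.75% of all genes). Cholesterol synthesis had 2 of 20 lower, Fdft1 (-0.37), which makes squalene, and Dhcr7 (-0.54), which makes cholesterol from its precursor. The lysosomal list had 3 of 38 lower, among them Arsb and the channel Mcoln1 (-0.24). Heat shock proteins had Dnajb1 higher (0.28) and its fellow co-chaperone Bag3 lower (-0.45). The adipokines had Rarres2 and Sncg (0.63), a synuclein of adipocytes, higher. Lists with 1 called member included those of Gys1, muscle-type glycogen synthase (-0.60), Pdk1 (-0.54), a kinase that restrains pyruvate dehydrogenase, the autophagy protein Atg9a (-0.45), Phgdh, the cell cycle kinase Cdk1 (0.80), the histone gene Hist3h2a (0.39) and Snhg11 (-0.86), listed among nuclear long non-coding RNAs but annotated as protein-coding in GENCODE M21. Of the 8 muscle markers, Myh4 (-6.13) and Atp2a1 (-5.51), a fast myosin and the calcium pump of fast fibres, were lower. Many of these calls depended on the setting: 11 of the 21 were missing in at least 12 of the 23 other settings, among them Pdk1 in 19, Fdft1 and Bag3 in 18, Mcoln1 and Sncg in 17, Phgdh and Atp2a1 in 15 and Myh4 in 13. The log2 fold change of Myh4 ran from -7.10 to -1.80 over the settings. With the muscle covariate, Arsb was the 1 member still called, although the log2 fold change of 8 of the 21 was at least as large as without it, among them Srebf1 (-0.75), Slc25a1 (-0.99) and Pdk1 (-0.60). Myh4 and Atp2a1 went to -1.80 and -1.09.

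No member was called in the lists of adipocyte, macrophage, endothelial and stromal markers, collagens and matrix (25 genes), nuclear genes of the respiratory chain (34), interferon-stimulated genes (20), the unfolded protein response (18) or lipolysis and fatty acid oxidation (20). In the present diet contrast, 27 of the 34 respiratory chain genes were called higher in mice on DR when killed, against 16% of all genes tested. Of the 25 matrix genes, 18 were called lower there, against 14.4% of all genes. All 8 muscle markers were higher with present diet as well (median log2 fold change 5.90), and with their level as a covariate 1394 genes were called for present diet, against 4816 without it. In the early diet contrast, 32 of the 34 respiratory chain genes were called higher with early DR, against 6.75% of all genes. The part of muscle RNA in these counts was not tested. The lists of library features gave 2 calls in all, Hist3h2a higher and Snhg11 lower. None of 20 immediate early genes, such as Fos, of 53 cytosolic ribosomal protein genes or of 13 mitochondrially encoded mRNAs was called, where 2.15% of all genes were. Their median log2 fold changes were -0.21, 0.15 and -0.29. Of the 53 ribosomal protein genes, 35 (66%) had both switched means beyond both unswitched means, against 20.3% of all genes. These genes were measured in the same libraries, so the 35 are not independent observations, and the share is a description. Per library, the log2 CPM of their sum differed by 0.231 between switched and unswitched mice (exact permutation within early diet, p = 0.105, adjusted p = 0.228). DR had the lowest group mean of this sum. Of 21 replication-dependent histone genes, whose mRNA carries no poly(A) tail, Hist3h2a was called and the median was 0.31. Lars2, 1 of 2 matched rows of the list of ribosomal RNA-like reads, varied widely within groups: it had 867 CPM in 1 AL library and 771 CPM in 1 ALDR library, and 12.2 to 345 CPM in the other 14. With the level of Lars2 as a covariate, a setting chosen after its values were seen, 246 genes were called.

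Besides the Gm10800 family, 12 library measures were compared by exact permutation within early diet, with p-values adjusted over all 13, and none had an adjusted p under 0.05. The number of genes with at least 1 count differed by -261 between switched and unswitched libraries (exact permutation, two-sided p = 0.0156, adjusted p = 0.102). The difference in mean log2 CPM between the 1 of 5 equal bins of genes richest in GC and the bin poorest in GC was -0.10 relative to unswitched libraries (exact permutation p = 0.0376, adjusted p = 0.163). The contrast between long and short genes gave -0.07 (exact permutation p = 0.342, adjusted p = 0.371), and total counts gave -0.19 on the log2 scale (exact permutation p = 0.0829, adjusted p = 0.216). The 8 muscle markers summed gave -3.15 (exact permutation p = 0.0663, adjusted p = 0.216). The calls themselves leaned with GC content. In the bin of genes with the least GC, 1.18% were called higher and 0.67% lower in switched mice, and in the bin with the most GC, 0.67% were called higher and 2.15% lower. The median log2 fold change went from 0.05 to -0.05 between these bins. For exon length, the shortest of 5 bins had 1.02% higher and 0.86% lower, and the longest 0.61% higher and 1.12% lower. The part of GC content in the calls was not tested.

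**Figure D5:**
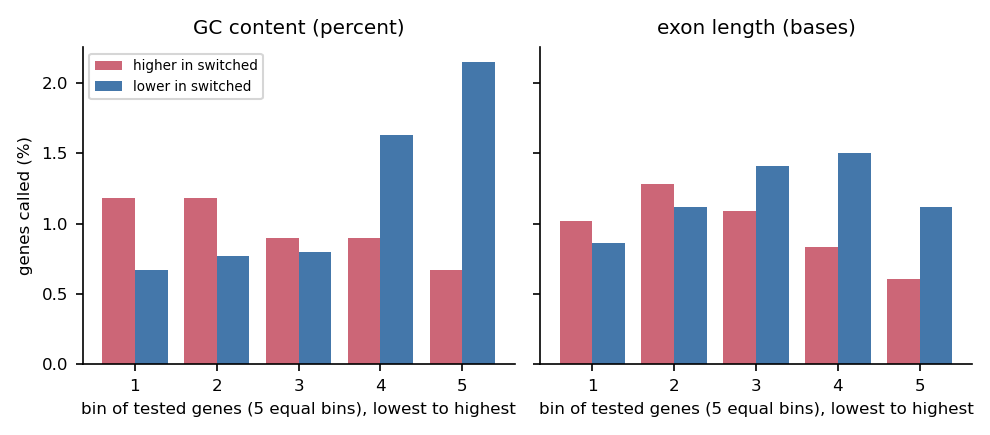
Percent of tested genes called higher (red) or lower (blue) in switched WAT (y axis) in 5 equal bins of genes by GC content and exon length (x axis, lowest to highest). Calls of lower genes rise to 2.15% in the bin richest in GC, while those of higher genes fall to 0.67%.

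The 5 month libraries, which were in the fit but had no weight in the contrast, were placed beside the old group on the same present diet. For 182 of the 340 called genes (53.5%), young AL mice lay nearer to old AL than to DRAL, against 42.4% of all genes tested. For 209 (61.5%), young ALDR mice lay nearer to old DR than to old ALDR, against 60.9% of all genes. Among the 32 called genes without overlap, young AL mice lay nearer the unswitched group for 23. Young ALDR mice, which bear a switched name themselves, did so for 19. The same contrast in BAT, with 3 AL, 3 DR, 5 ALDR and 3 DRAL libraries at 26 months, called 5 of 13845 genes (0.0361%), and 1479 had an unadjusted p under 0.05. With DESeq2, 91 genes were called. Of the 340 genes called in WAT, 323 were tested in BAT and none was called there; 34 (10.5%) had an unadjusted p under 0.05, as did 10.5% of all genes tested in both. Their direction was the same in 169 (52.3%), against 52.6% of all genes, and Pearson's r between the fold changes across the 323 genes was 0.09.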

How the data were processed

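The authors deposited whole-number read counts per gene and library, not normalized, 1 table per tissue. Per the submitters' processing notes, Trim Galore 0.3.7, TopHat2 2.0.14 and DESeq2 were used with build GRCm38; the counting program is not given in the sources used here. WAT libraries were stranded and paired-end, per the labels' protocols. Counts were tested here with edgeR 4.0.16 in R 4.3.3 (TMM, filterByExpr, quasi-likelihood test, all 22 WAT libraries in 6 groups, Benjamini-Hochberg adjustment over all genes, called under 0.05); DESeq2 1.42.0 was an alternative. The fit was tested on simulated data. CPM use TMM-scaled library sizes, and sums over lists use library totals. Symbols came from GENCODE M21 for 25012 of 25913 identifiers; GC content and exon length are of its exons. Library measures were compared by exact permutation of switched and unswitched within early diet (3136 arrangements, smallest p 0.000319). The labels call the libraries biological replicates and do not say which mice shared a cage. Floors of 3 counts cover counting error only. Named genes were the called genes with no overlap that differed by 1 or more on the log2 scale (up to 10 per direction), the 3 leading genes per direction between AL and DR, 2 with provisional names per direction, Arsb, and up to 4 called members per list; others were chosen after their values were seen. Some genes that the rule selected are not reported here. By this rule, C130026I21Rik and 2810025M15Rik were also called higher (log2 fold changes 0.78 and 0.47). The comparison, its lists and rules were chosen with earlier results of these data known. Pearson's r and Spearman's rho are descriptions.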

Additional observations from a re-analysis of the deposited data

Results flagged for a closer look

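Among 216 checks of a named gene or library measure in a group of 5 libraries, 18 had 1 library far from the other 4. Chance flags about 1 in 20 where values are independent and normally spread. Genes near 0, such as Gm10801 with a median of 0 CPM in ALDR and DRAL, and genes of 1 family do not meet this. The 18 are therefore a description. In ALDR the highest library stood apart for Cdk1 (8.21 CPM), Churc1 (33.6 CPM), C130026I21Rik (108 CPM), G530011O06Rik (5.38 CPM), 5033430I15Rik (1.29 CPM), Myh4 (1350 CPM), Sncg (909 CPM), Gm10801 (0.113 CPM) and the ribosomal RNA-like rows (9.70 as log2 CPM of the sum). In DRAL the highest library stood apart for Gm10800 (1.75 CPM), Gm10801 (0.0832 CPM), Gm10722 (0.166 CPM), Ppp6r2 (37.6 CPM), the summed Gm10800 family (1.66 as log2 CPM) and the cytosolic ribosomal proteins (14.5 as log2 CPM). The lowest DRAL library stood apart for Ints1 (34.6 CPM), Sec24c (74.5 CPM) and the difference between GC-rich and GC-poor genes (-0.64).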

How the results depend on the processing

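None of the named genes that were called changed direction under any alternative. Arsb, Xkrx, C2cd2l, Zadh2, Lig4, Fbxo22, 4931406C07Rik, Ofcc1 and Acsf2 were called under all 23. The number of calls was far less stable, and the cause was not tested except where fewer libraries entered. Without the filter on low counts, 200 genes were called (82 higher, 118 lower); with only the 4 groups at 26 months, 242 (93 higher). DESeq2 called 905 (419 higher, 486 lower), among them all 340, and gave 44 genes in 1 direction in both comparisons matched on present diet, 1222 genes for ALDR against AL, 940 for DRAL against AL and 91 in BAT. With the muscle marker covariate, 10 genes were called (1 higher, 9 lower), 4 without overlap and 7 matched on present diet, and counts fell to 1394 for present diet, 554 for ALDR against DR and 427 for DRAL against DR. In BAT, 0 genes were called with only the 4 groups and 0 with the block, against 5 at the same threshold in edgeR with 1479 at unadjusted p under 0.05. Leaving out 1 library gave 73 to 561 calls (30 to 192 higher, 43 to 369 lower), 16 to 44 without overlap, 2 to 15 in 1 direction on matched present diet, 1308 to 2118 for early diet, 191 to 1159 for ALDR against AL, 878 to 2351 for ALDR against DR, 61 to 386 for DRAL against AL, 3025 to 4978 for DRAL against DR and 0 to 9 in BAT. Of the library measures, leaving out 1 library gave -0.122 to -0.0703 for GC content, -311 to -220 for genes detected, 0.169 to 0.29 for ribosomal proteins, -0.236 to -0.143 for log2 total counts and -3.91 to -2.45 for muscle, with changes in which side of unadjusted p = 0.05 they fell on. GC content taken as a median gave -0.0957 (exact permutation p = 0.0622). The abundant small structured RNAs had no row in the table and gave no value.

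Replicate numbers recur across groups, but same-numbered libraries did not deviate together (mean correlation -0.02 in WAT, from -0.65 to 0.58), so the numbers do not pair the mice. With the replicate number as a block, 41 genes were called (11 higher, 30 lower), 10 without overlap, 3 in 1 direction on matched present diet, 1334 for ALDR against DR, 74 for DRAL against AL and 0 in BAT. In WAT, replicate numbers 4 and 5 occur only in ALDR and DRAL at 26 months. With the block, these libraries therefore add nothing to the difference between switched and unswitched mice, and some loss of calls is built into this setting. How much of the fall follows from this layout was not tested.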

Other observations

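The 5 genes called in BAT were all lower in switched mice: Tusc3 (log2 fold change -0.54, edgeR adjusted p = 0.0269), Abcc4 (-0.55), Dock9 (-0.45), Mtr (-0.63) and Pitpnc1 (-0.47, adjusted p = 0.0479). None was called in WAT, where the log2 fold changes were 0.08, -0.11, -0.29, 0.04 and -0.16 in the same order (adjusted p from 0.182 to 0.763). Abcc4, a transporter of cyclic nucleotides, had 56.2 ± 7.51 CPM in DR (SD, n = 3) against 31.5 ± 2.32 in AL, 27.3 ± 4.24 in ALDR and 30.2 ± 3.81 in DRAL. Mtr, methionine synthase, had 24.0 ± 0.41 CPM in DR and 17.5 ± 2.68 in AL against 13.8 ± 2.44 in ALDR and 12.6 ± 0.68 in DRAL.

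Some called WAT genes without overlap lie close together. Pfdn2 (lower) and F11r (higher) are 78281 bases apart on chromosome 1 on the same strand and moved in opposite directions. Pdf and Cog8, both higher, overlap on the same strand of chromosome 8, so their reads may be shared. Calls were spread over the genome, from 1.48% of tested genes on chromosome 15 to 3.03% on chromosome 8.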
